A study of Mus musculus with 34 samples.

Results

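The liver response to a high-fat diet (HFD) was measured in wild-type (WT) mice by comparing 5 HFD-fed livers with 3 chow-fed livers. These 8 libraries, chosen by their labels for genotype and diet, are part of a study of 34 libraries of polyadenylated RNA from whole livers of male mice. Every WT mouse belonged to the Bcl2 experiment, in which adipocyte-specific Bcl2-transgenic mice (Bcl2AdTG, a Cre-inducible Bcl2 gene switched on by Cre under the Adipoq promoter) were the other genotype. Which of these alleles, if any, the WT mice carried is not given in the sources used here. HFD feeding began at 8 weeks of age and lasted 3 months, on food with 60% (HFD) or 10% (chow) of its energy as fat. A second pair of groups serves as a check: 5 HFD-fed and 4 chow-fed S100a8 fl/fl mice, which carry a floxed S100a8 gene and no Cre and are the controls of a macrophage-specific S100a8 deletion driven by Cx3cr1-Cre. They come from a separate experiment that shares no library with the WT groups, and their diet lasted 3 or 4 months, as the sources differ.

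Each mouse gave 1 library, so the p-values measure a spread between mice. That spread was pooled over the 16 libraries of the Bcl2 experiment, Bcl2AdTG livers included. HFD-fed WT libraries held 21758112 to 52395073 counts (median 28187998) and chow-fed WT libraries 20902987 to 29994832 (median 27583602), over 14436 genes. In both groups mouse 2 stood apart in its share of counts from mitochondrially encoded genes, at 1.77% in HFD-fed mouse 2 against 5.0% to 5.76% in the other HFD-fed mice, and at 3.99% in chow-fed mouse 2 against 6.05% and 6.12% in the other chow-fed mice. The label was checked against 9 hepatocyte markers, whose summed level was 86284 to 122105 CPM in HFD livers and 106974 to 132428 CPM in chow livers, with 3 of them lower and none higher. Bcl2 was at 21.3 CPM in HFD mouse 1 and 2.72 to 2.94 CPM in the other HFD-fed WT livers, and at 7.75 to 11.3 CPM in chow-fed WT livers, against 8.98 to 14.9 CPM in HFD-fed and 4.17 to 8.44 CPM in chow-fed Bcl2AdTG livers. A transgene driven in adipocytes need not appear in liver RNA, so these values do not check the genotype labels, but HFD mouse 1 stands apart, and 1954 genes were called without it against 2220 with it. None of the measured adipocyte, smooth muscle, mesothelial or erythroid markers (2 of 6, 2 of 5, 4 of 5 and 5 of 5 measured) was called, although 1 adipocyte marker was higher with the replicate block. With the mean level of the adipocyte, smooth muscle and mesothelial markers as a covariate 2121 genes were called, 1161 higher and 960 lower, and 179 of the 181 genes named here kept their call, the exceptions being Pdk4 and Ppara. The part of the erythroid markers was not tested. Levels are CPM, read counts scaled to a common library size after TMM normalization, changes are log2 fold changes of HFD over chow with their standard error, and a gene is called where its edgeR p-value, adjusted over all 14436 genes, is under 0.05.

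When energy supply exceeds need, hepatocytes take up circulating fatty acids, store them as triglyceride in lipid droplets and burn part of them in mitochondria and peroxisomes. Many of these genes also follow the molecular clock, a feedback loop in which the activators BMAL1 (gene Arntl), CLOCK and NPAS2 switch on the repressors of the PER, CRY and REV-ERB families and output factors such as DBP and TEF, whose RNA rises and falls over each day. Male and female mouse livers further differ in many genes that follow the pulses of growth hormone, and these genes are known to change in obesity.

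On HFD 2220 of 14436 genes were called (15.4%), of which 1213 were higher (8.40%) and 1007 lower (6.98%). The changes were spread over many pathways rather than over the lipid genes alone. The share of members called higher was above that of all genes in the lists of lipid droplets, fatty acid oxidation, collagens, macrophage markers and the cell cycle. The share called lower was above that of all genes for male-biased genes, drug-metabolizing cytochromes, endoplasmic reticulum (ER) chaperones, complement and coagulation, and immediate early genes. Lists and members were chosen with earlier results of these data known, so these shares describe the lists and do not test them. Because whole livers were sequenced, more cells of a type and more RNA per cell cannot be told apart. In the bar plot of the gene lists, each list is set beside the share of all genes called.

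**Figure D1:**
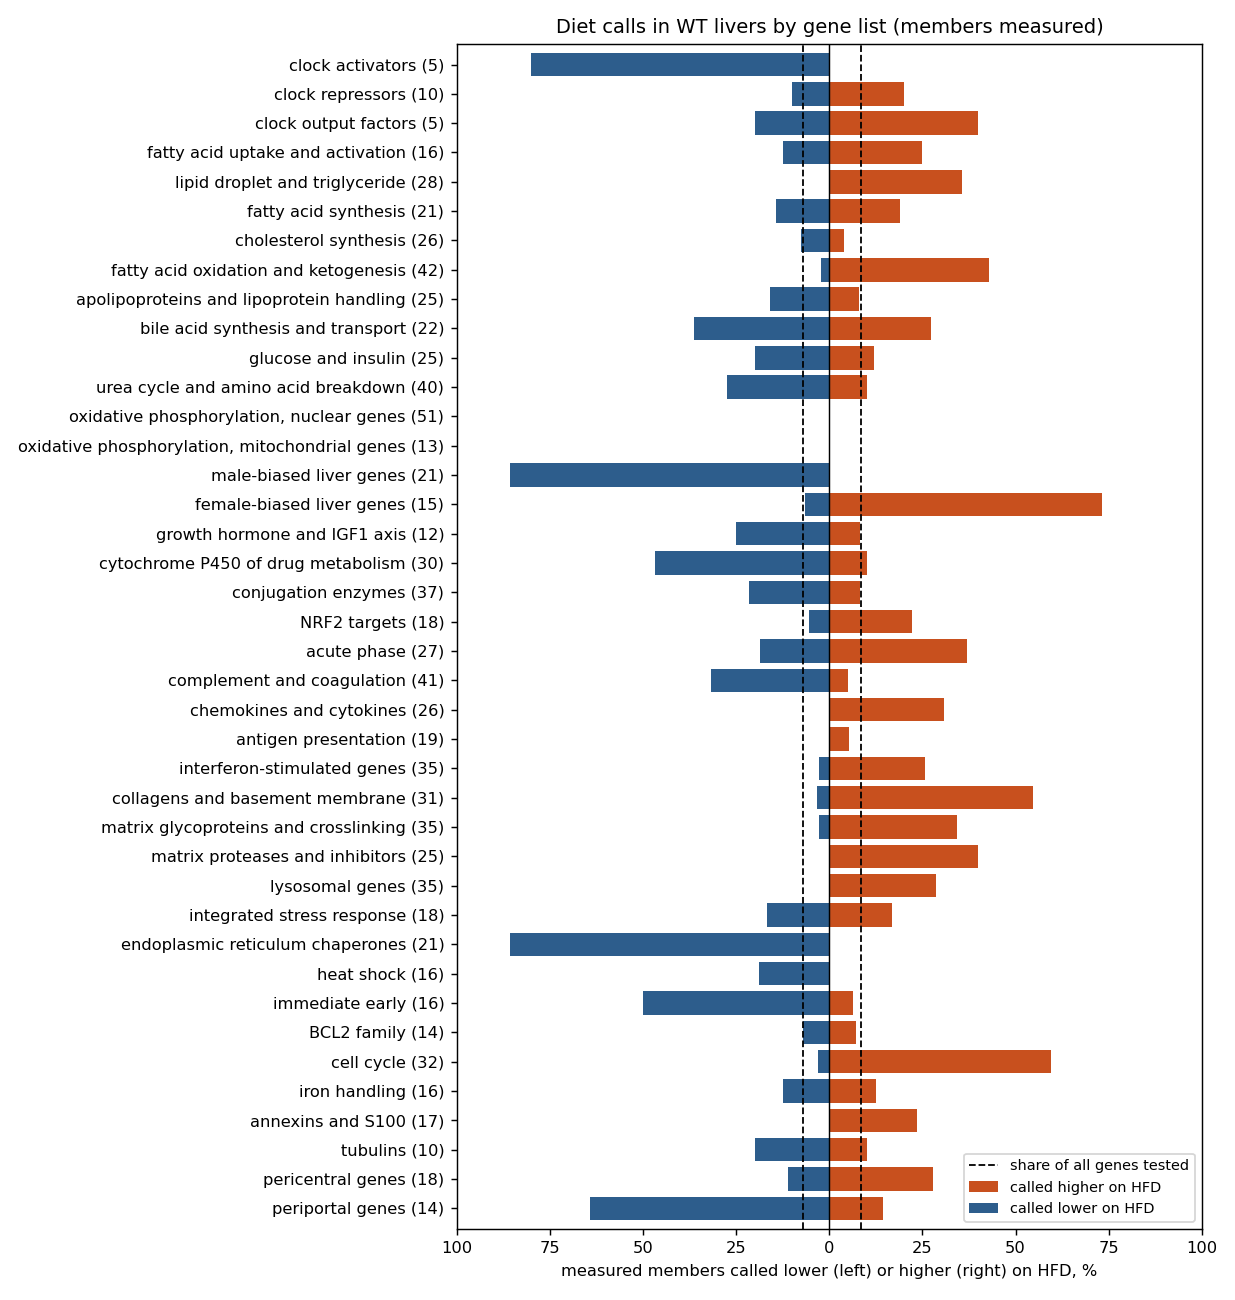
Share of the measured members of each gene list that were called higher (right, orange) or lower (left, blue) in 5 HFD-fed against 3 chow-fed WT livers, in percent, with the number of measured members in brackets. The dashed lines mark the shares over all 14436 genes (8.40% higher, 6.98% lower), and the male-biased genes and ER chaperones reach farthest to the left, each with 18 of 21 members called lower.

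Clock genes separated the diets in WT livers. Of 5 activators 4 were called lower and none higher. Of 10 repressors Per3 and Nr1d2 were higher and Cry1 lower, and of 5 output factors Dbp and Tef were higher and Nfil3 lower. Dbp, a transcription factor that follows the activators, had 31.7, 31.7, 29, 34.7 and 24.9 CPM in HFD livers, against 0.651, 0.493 and 1.40 CPM in chow livers. All 5 HFD livers lay far above all 3 chow livers, as they did for 11.3% of all genes (8.55% lay wholly below), with a log2 fold change of 5.20 ± 0.60 (edgeR adjusted p = 5.5e-05). Per3, a member of the period family, had 12.1, 12.1, 8.47, 16.7 and 13 CPM in HFD livers and 1.75, 2.38 and 3.29 CPM in chow livers (2.34 ± 0.41, edgeR adjusted p = 0.00121). Arntl moved the other way and did not overlap between the diets, with 10.0, 9.15, 11.8, 11.5 and 11.2 CPM in HFD livers against 38.1, 32.7 and 33.2 CPM in chow livers (-1.69 ± 0.22, edgeR adjusted p = 1.6e-04). Npas2, a partner of Arntl, was at 3.19 ± 0.494 CPM in HFD livers and 14.3 ± 2.26 CPM in chow livers (SD, n = 5 and 3; -2.17 ± 0.27, edgeR adjusted p = 9.6e-05), and Cry1, which encodes a repressor of the loop, at 9.53 ± 1.02 CPM in HFD livers and 25.7 ± 4.87 CPM in chow livers (-1.43 ± 0.16, edgeR adjusted p = 5.1e-05). Tef, Nr1d2, Nfil3 and the activator Rora had log2 fold changes of 1.21 ± 0.22, 0.95 ± 0.17, -1.46 ± 0.17 and -0.59 ± 0.12 (edgeR adjusted p = 0.00158, 0.00146, 6.2e-05 and 0.00333). Not all of the loop was called: Per1 was at 0.87, Per2 at 0.54, Cry2 at 0.17 and Nr1d1 at 0.50 on the log2 scale, of which Nr1d1 was called with the replicate block (edgeR adjusted p = 0.0451). The Clock gene itself (-0.44, edgeR adjusted p = 0.0289) was not called without HFD mouse 2 or 5 or chow mouse 1 or 3 (edgeR adjusted p up to 0.0942), nor with the replicate block (0.0636).

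**Figure D2:**
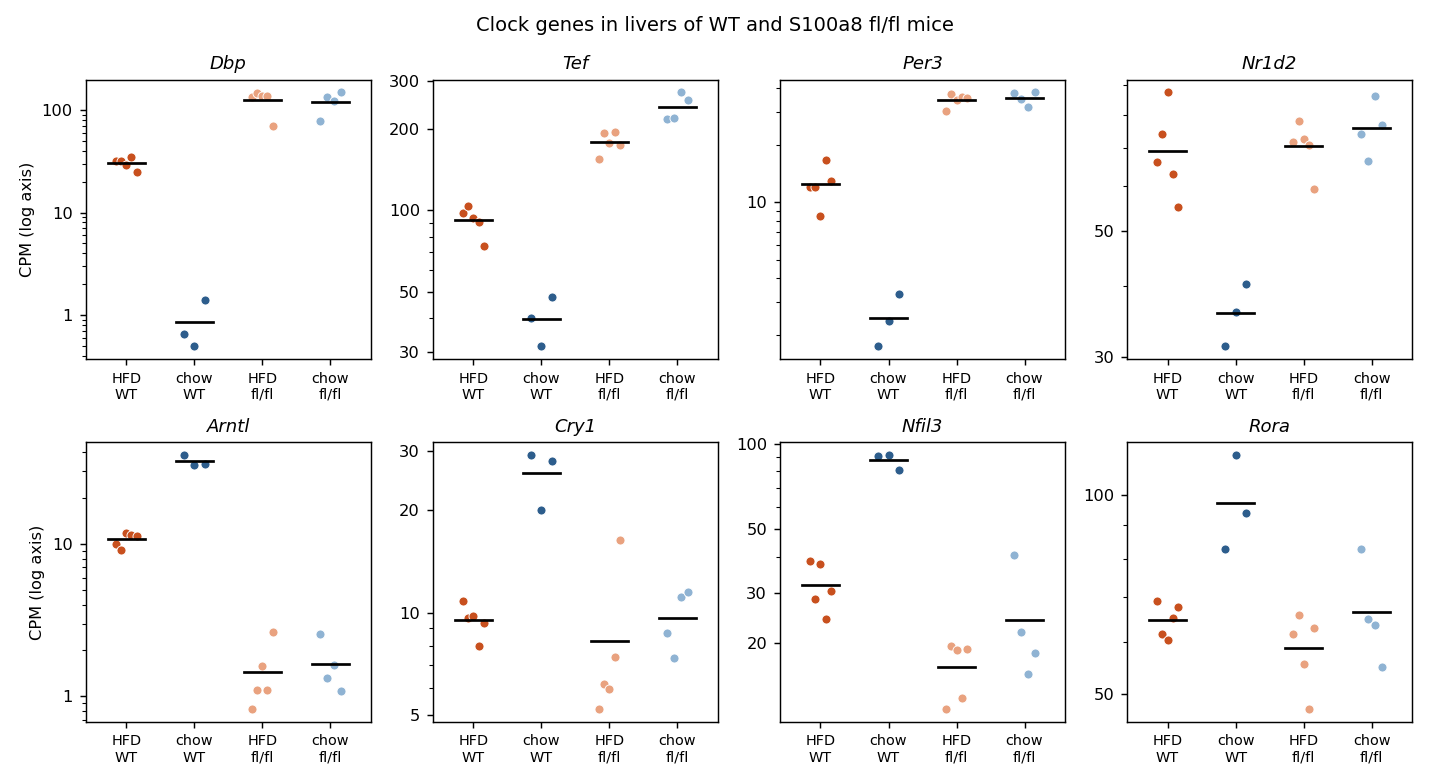
CPM (log axis) of 8 clock genes, 1 point per mouse and a bar at the mean, in HFD-fed and chow-fed WT livers and in HFD-fed and chow-fed S100a8 fl/fl livers. The diets separate in every panel for WT mice, while Dbp, Per3 and Arntl overlap between the diets in S100a8 fl/fl mice.

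In the S100a8 fl/fl mice the clock genes did not separate the diets in this way. None of 4 measured activators was called there, and 3 of 10 repressors (Per1, Bhlhe41 and Ciart) and 2 of 5 output factors (Tef and Usp2) were lower. Of all genes in that cohort 14.5% were called higher and 13% lower, and list counts there are read against these shares. Dbp was at 134, 147, 136, 136 and 69.4 CPM in HFD livers and 78.8, 133, 123 and 149 CPM in chow livers, and Arntl at 0.827, 1.11, 1.59, 1.11 and 2.63 CPM in HFD livers and 2.55, 1.33, 1.61 and 1.08 CPM in chow livers. Both overlapped between the diets, and their levels were outside those of either WT group, with Dbp higher and Arntl lower. A clock score, the mean log2 CPM of Dbp, Tef, Per3, Nr1d1, Nr1d2 and Ciart minus that of Arntl, Npas2 and Clock, was 1.06 to 1.28 in HFD-fed WT livers and -2.43 to -1.74 in chow-fed WT livers, against 2.60 to 3.88 and 2.75 to 4.24 in HFD-fed and chow-fed S100a8 fl/fl livers (Npas2 was not measured there). The hour at which livers were collected and whether mice were fasted are not given in the sources used here. Diet and the position of the clock therefore cannot be told apart in the WT comparison. With the score as a covariate no gene was called (663 had an unadjusted p under 0.05, against 4398 without it), the median standard error was 0.52 against 0.21, and 2149 of the 2220 called genes had the same sign.

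The promoters of a clock output gene and a repressor gene that were higher on HFD are shown because both hold a sequence that clock factors bind. The windows run from 250 bases before to 50 after the RefSeq start (GRCm38.p6), 5′ to 3′ on the strand of the gene, with Tef at chr15:81802423-81802722 (plus strand) and Per3 at chr4:151044616-151044915 (minus strand). Capitals mark the E-box CACGTG in Tef, the site of BMAL1 and its partners, and the D-box TTATGTAA in Per3, the site of DBP and TEF.
Tef: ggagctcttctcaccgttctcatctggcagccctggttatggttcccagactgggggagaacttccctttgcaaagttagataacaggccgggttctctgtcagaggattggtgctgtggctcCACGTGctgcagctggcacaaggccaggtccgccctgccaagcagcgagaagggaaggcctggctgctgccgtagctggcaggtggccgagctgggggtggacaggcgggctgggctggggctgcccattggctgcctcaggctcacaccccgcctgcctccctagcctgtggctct
Per3: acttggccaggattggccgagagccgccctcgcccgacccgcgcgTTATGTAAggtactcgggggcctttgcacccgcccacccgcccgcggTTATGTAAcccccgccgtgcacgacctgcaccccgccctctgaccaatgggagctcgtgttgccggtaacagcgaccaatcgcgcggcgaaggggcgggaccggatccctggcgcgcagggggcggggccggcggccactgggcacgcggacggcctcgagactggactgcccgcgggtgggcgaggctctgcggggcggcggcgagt
Searched on both strands, the E-box was in the window of 2187 of 27025 genes (8.09%), in 4 of 8 matched clock repressor genes and in 1 of 5 output factor genes. The D-box was in that of 299 genes (1.11%), and Per3 held 2 matches. A match describes the letters of the window and is not a measured site.

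The largest rises included genes that were almost silent in chow-fed livers. Cyp2b9, a cytochrome P450 of the female liver (chromosome 7, 26173411 to 26210661, GRCm38), had 271, 274, 261, 334 and 265 CPM in HFD livers and 0.240, 0.617 and 1.36 CPM in chow livers. The HFD livers lay within a narrow range, far above every chow liver (8.64 ± 0.78, edgeR adjusted p = 1.4e-05). Its neighbour Cyp2b13 (chromosome 7, 26061497 to 26096197) averaged 21.9 ± 4.78 CPM in HFD livers, while the 3 chow libraries held 2 reads in all, a ratio of 813 with a 95% counting interval of 225 to 6713. Sprr1a, which encodes a protein of the squamous cell envelope, had 2.59, 0.266, 0.752, 7.93 and 12.2 CPM in HFD livers and no read in chow livers, at least 117-fold higher when 3 reads over the chow group are taken as the floor. Intervals and floors cover counting error only. Apoa4, an apolipoprotein that follows lipid load, had 396, 261, 663, 704 and 765 CPM in HFD livers against 16.3, 20.3 and 18.9 CPM in chow livers (4.91 ± 0.53, edgeR adjusted p = 4.0e-05). Other genes of the 15 with the largest rises were Hao2, which encodes a hydroxyacid oxidase (5.71 ± 0.64), the anion transporter genes Slc22a27 (5.24 ± 0.63) and Slc22a29 (4.68 ± 0.54), Ttc39a (5.49 ± 0.81), Ly6d (5.92 ± 0.94) and Themis (4.70 ± 0.72, edgeR adjusted p = 4.8e-05, 7.4e-05, 5.5e-05, 3.3e-04, 6.4e-04 and 5.0e-04). Of these 15 genes 14 were measured in S100a8 fl/fl livers and 13 were called higher there, the exception being Dbp.

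The windows of Cyp2b9 (chr7:26173159-26173458, plus strand) and Cyp2b13 (chr7:26061245-26061544, plus strand) are shown because the genes rose together and their promoters are almost the same sequence. They share 298 of 300 bases, and capitals mark the 2 positions that differ.
Cyp2b9: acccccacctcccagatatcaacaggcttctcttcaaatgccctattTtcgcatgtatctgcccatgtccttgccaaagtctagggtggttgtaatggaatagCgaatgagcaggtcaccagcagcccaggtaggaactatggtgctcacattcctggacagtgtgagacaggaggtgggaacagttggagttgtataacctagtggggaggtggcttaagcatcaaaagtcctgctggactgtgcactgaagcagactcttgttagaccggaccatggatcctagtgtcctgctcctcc
Cyp2b13: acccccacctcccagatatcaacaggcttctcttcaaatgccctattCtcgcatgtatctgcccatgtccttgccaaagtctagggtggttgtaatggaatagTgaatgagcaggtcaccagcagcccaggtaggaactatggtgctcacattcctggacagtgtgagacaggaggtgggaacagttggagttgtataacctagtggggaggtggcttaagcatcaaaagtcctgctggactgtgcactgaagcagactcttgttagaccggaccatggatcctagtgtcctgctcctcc
The transcripts are near copies too, so reads may have been split between these genes in the authors' counting, and their separate values are uncertain.

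The largest falls included genes of the male liver. Hsd3b5, a steroid dehydrogenase of male livers (chromosome 3, 98618634 to 98630252, GRCm38), had 10.2, 1.10, 2.26, 0.171 and 0.144 CPM in HFD livers, against 303, 303 and 211 CPM in chow livers. Every HFD liver was far below every chow liver, and HFD mouse 1 was the highest of its group (-6.55 ± 0.86, edgeR adjusted p = 1.4e-04). Serpina1e, a copy of the alpha-1 antitrypsin gene, averaged 171 ± 193 CPM in HFD livers and 6812 ± 1354 CPM in chow livers (SD, n = 5 and 3; -5.32 ± 0.84, edgeR adjusted p = 6.0e-04). Of 21 male-biased genes 18 were lower and none higher, with a median log2 fold change of -2.13 against -0.02 over all genes. Selenbp2 (-4.35 ± 0.51), the oxysterol hydroxylase gene Cyp7b1 (-2.58 ± 0.28), the acetyltransferase gene Nat8 (-2.31 ± 0.30) and the bile acid and steroid transporter gene Slco1a1 (-2.59 ± 0.64) were among them (edgeR adjusted p = 6.2e-05, 3.9e-05, 1.2e-04 and 0.0118). Serpina1e, the major urinary protein (Mup) genes and Cyp4a12b (-4.87 ± 0.56, edgeR adjusted p = 5.5e-05) have near-identical copies, so their separate values are uncertain. The female-biased genes moved the other way, with 11 of 15 measured genes of 26 higher and 1 lower (median 2.42). Besides the Cyp2b genes these included Abcd2, a peroxisomal transporter of very long fatty acids (64.3 ± 21.4 CPM in HFD and 8.03 ± 3.10 CPM in chow livers, 3.0 ± 0.33), and the steroid hydroxylase gene Cyp17a1 (3.26 ± 0.48, edgeR adjusted p = 4.2e-05 and 3.6e-04). The exception was Cyp2b10, a target of the xenobiotic receptor CAR, at -2.45 ± 0.41 (edgeR adjusted p = 9.4e-04). The count of 11 was 7 without chow mouse 1. Together the 15 measured genes held 43.0 to 50.1 CPM in chow livers and 430.5 to 629 CPM in HFD livers. The tables were filtered before deposit, so a gene this low on chow could enter through libraries where it is high. The share of 11 of 15 and the median of 2.42 may follow in part from that filter and do not test the list. In the growth hormone pathway the receptor gene Ghr was at -0.31 and the signalling gene Stat5b at -0.08, neither called. Igfbp3, a carrier of IGF1, was higher (0.93 ± 0.13, edgeR adjusted p = 2.3e-04) and the repressor gene Bcl6 lower (-1.77 ± 0.45, edgeR adjusted p = 0.0143), and the fall of Igf1 (-0.52 ± 0.14, edgeR adjusted p = 0.0165) was not called without chow mouse 2 (edgeR adjusted p = 0.0553).

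**Figure D3:**
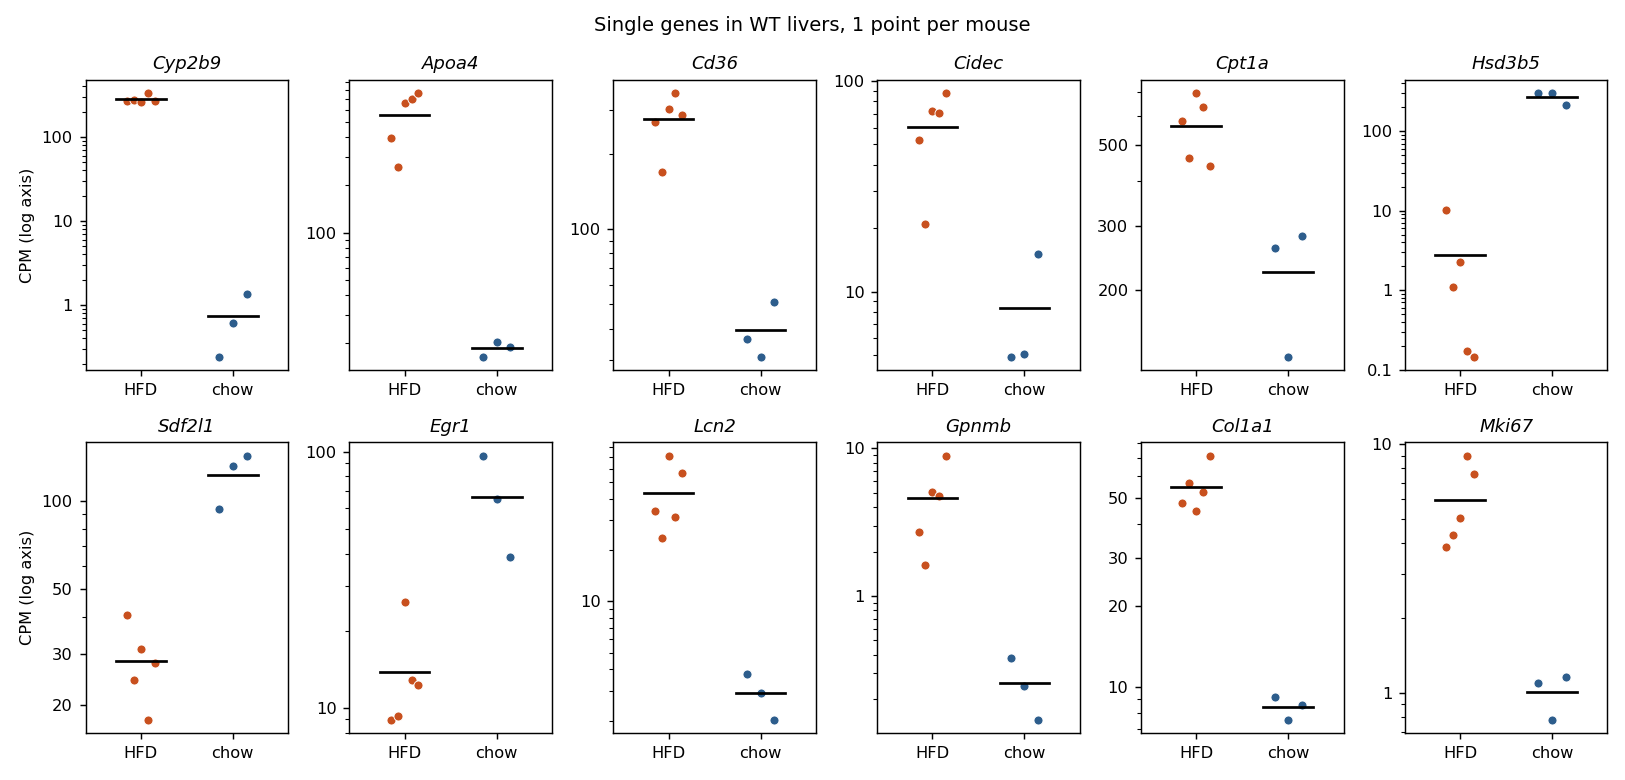
CPM (log axis) of 12 genes in WT livers, 1 point per mouse and a bar at the mean, with the 5 HFD-fed mice left of the 3 chow-fed mice in each panel. The diets do not overlap in any panel, and Hsd3b5 spreads over the widest range within the HFD-fed group, 0.144 to 10.2 CPM.

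Of 16 genes of fatty acid uptake and activation 4 were higher, 2 lower and 10 not called, with a median of 0.05, and their summed level was 6649 to 7977 CPM in HFD livers and 6739 to 9004 CPM in chow livers. Cd36, the fatty acid translocase (chromosome 5, 17781690 to 17888801, GRCm38), had 268, 169.9, 304, 351 and 287 CPM in HFD livers, against 36.2, 30.8 and 51 CPM in chow livers. The lowest HFD value, that of mouse 2, was still above the highest chow value (2.81 ± 0.39, edgeR adjusted p = 2.1e-04). Vldlr, a receptor for triglyceride-rich lipoproteins, averaged 12.2 ± 3.16 CPM in HFD livers and 1.12 ± 0.476 CPM in chow livers (SD, n = 5 and 3; 3.41 ± 0.37, edgeR adjusted p = 3.9e-05). The fatty acid binding protein genes Fabp2 and Fabp4 were higher (1.64 ± 0.29 and 1.34 ± 0.30, edgeR adjusted p = 0.00129 and 0.00654) and Fabp5 was lower (-1.83 ± 0.41, edgeR adjusted p = 0.00662), while the abundant liver form Fabp1 was at 0.01.

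Of 29 lipid droplet and triglyceride genes 28 were measured, and 10 of these were higher and none lower, with a median of 0.47. Cidec, which fuses lipid droplets, had 52.6, 20.9, 72.2, 70.3 and 87.7 CPM in HFD livers and 4.90, 5.06 and 15.1 CPM in chow livers. HFD mouse 2 was the lowest of its group and chow mouse 3 the highest of its own, and the groups did not overlap (2.87 ± 0.60, edgeR adjusted p = 0.00465). Plin4, a droplet coat protein (2.88 ± 0.59), Mogat1, an acyltransferase that makes diacylglycerol (2.84 ± 0.62), Gpat3, which starts glycerolipid synthesis (1.23 ± 0.28), the master regulator of fat storage Pparg (1.12 ± 0.24) and the main hepatocyte droplet coat gene Plin2 (0.84 ± 0.19) were all higher (edgeR adjusted p = 0.00401, 0.00617, 0.00724, 0.00555 and 0.00659). Plin2 was by far the most abundant of these by read count, with 959.6 ± 128 CPM in HFD livers and 537 ± 63.3 CPM in chow livers (SD, n = 5 and 3). The last step of triglyceride synthesis did not move past the test, with Dgat1 at -0.03 and Dgat2 at -0.04, nor did the lipase gene Pnpla2 (0.30).

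Of 21 fatty acid synthesis genes 4 were higher, 3 lower and 14 not called, with a median of 0.21. The 4 higher ones encode enzymes that desaturate or lengthen polyunsaturated fatty acids, with Fads2 at 1238 ± 274 CPM in HFD livers and 398 ± 55.2 CPM in chow livers (1.64 ± 0.22, edgeR adjusted p = 1.5e-04), Elovl5 at 1569 ± 248 CPM in HFD livers and 465 ± 86 CPM in chow livers (1.75 ± 0.26, edgeR adjusted p = 3.2e-04) and Elovl2 at 0.70 ± 0.15 (edgeR adjusted p = 0.00555). Acly, Acaca and Fasn, which make palmitate, and the desaturase gene Scd1 were not called, with Acly at -0.02, Acaca at 0.75, Fasn at 0.36 ± 0.44 (edgeR adjusted p = 0.620) and Scd1 at 0.50 ± 0.28 (edgeR adjusted p = 0.253). Elovl3, a male-biased elongase that also follows the clock, was lower (-2.46 ± 0.47, edgeR adjusted p = 0.00239), as were Mlxipl, which encodes the carbohydrate response factor ChREBP (-0.76 ± 0.16), and Mid1ip1, an activator of acetyl-CoA carboxylase (-1.34 ± 0.25, edgeR adjusted p = 0.00546 and 0.00207). In S100a8 fl/fl livers 11 of the 21 were higher and 1 lower (median 0.75), against 14.5% of all genes higher and 13% lower. The difference between the cohorts was called for 1 of the 21, Elovl3. Among 26 cholesterol synthesis genes 1 was higher and 2 lower, with a median of -0.39 (1 and 0 in a fit of the 8 WT libraries alone). Insig1, a target and brake of the sterol regulator SREBP2, was the firmest of these (-0.78 ± 0.19, edgeR adjusted p = 0.0110). With the replicate number as a block, a matching that no label states, 14 of the 26 were called lower.

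Of 42 fatty acid oxidation and ketone body genes 18 were higher, Pdk4 alone was lower, and the median was 0.47. Cpt1a, which admits long-chain fatty acids to mitochondria, had 584, 462, 696, 638 and 439 CPM in HFD livers, against 260.4, 131 and 281 CPM in chow livers. All HFD livers were above all chow livers, and chow mouse 2 was the lowest of its group (1.33 ± 0.24, edgeR adjusted p = 0.00173). Vnn1, a pantetheinase (2.13 ± 0.26), the uncoupling protein gene Ucp2 (1.99 ± 0.29), the mitochondrial thioesterase gene Acot2 (1.89 ± 0.31), the omega-hydroxylase gene Cyp4a14 (2.28 ± 0.51), Hadh of the beta-oxidation spiral (0.71 ± 0.11), and Bdh1 of ketone body synthesis (0.97 ± 0.13) were higher (edgeR adjusted p = 7.4e-05, 2.7e-04, 7.5e-04, 0.00639, 4.2e-04 and 2.1e-04). The receptor gene Ppara was at 0.95 ± 0.33 and its target Fgf21 at 1.56 ± 0.55 (edgeR adjusted p = 0.0579 and 0.0652), and both were called with the replicate block (edgeR adjusted p = 0.00365 and 0.0200), Ppara also with the marker covariate (0.0486). Pdk4, which blocks glucose oxidation, was at -0.85 ± 0.28 (edgeR adjusted p = 0.0470), a call that was lost without any of 7 libraries, HFD mice 1 to 4 and chow mice 1 to 3 (edgeR adjusted p up to 0.140), and with the marker covariate (0.0560). No nuclear gene of oxidative phosphorylation was called of 51 (median -0.36), and none of the 13 mitochondrially encoded genes (median -0.56), against 1 lower in each list with the replicate block.

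Lipoprotein genes changed in a few members. Besides Apoa4, the cholesterol exporter gene Abcg1 was higher (1.13 ± 0.24, edgeR adjusted p = 0.00500). Angptl8, a feeding-induced inhibitor of lipoprotein lipase, had 32, 21.2, 25.6, 30.9 and 27.9 CPM in HFD livers, against 155, 236 and 128 CPM in chow livers. The groups were well apart (-2.65 ± 0.32, edgeR adjusted p = 7.1e-05). Apom, an apolipoprotein of high-density lipoprotein, was lower (-1.38 ± 0.27, edgeR adjusted p = 0.00308), and Apob and Mttp, which build very-low-density lipoprotein, were at 0.13 and 0.02.

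Bile acid genes moved in both directions, with 6 of 22 measured higher and 8 lower. The alternative route of synthesis was lower at Cyp27a1 (-0.73 ± 0.12) and Cyp7b1, and so were Cyp2c70, which makes the muricholic acids of mice (-1.83 ± 0.19), and the conjugating enzyme gene Baat (-0.50 ± 0.10, edgeR adjusted p = 7.7e-04, 3.9e-05, 2.9e-05 and 0.00246). Cyp7a1, the rate-limiting enzyme of the classical route, was at -0.72 ± 0.45 and not called (edgeR adjusted p = 0.305). Of the canalicular transporters Abcb4, which exports phospholipid, was higher (1.04 ± 0.18, edgeR adjusted p = 0.00112), as was the sterol exporter gene Abcg5 (0.61 ± 0.14, edgeR adjusted p = 0.00688), and the bile salt export pump gene Abcb11 was at -0.38. The lower count was 5 without chow mouse 2, with the replicate block and in a fit of the 8 WT libraries alone, and the higher count was 3 without HFD mouse 4.

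In glucose and insulin handling the firmest change was Irs2, which carries the insulin signal and falls when insulin is high. Irs2 had 11.8, 10.8, 13.9, 9.98 and 9.97 CPM in HFD livers and 32.1, 47 and 65.2 CPM in chow livers, without overlap (-2.08 ± 0.18, edgeR adjusted p = 1.1e-05). Igfbp2, a binding protein that is low in obesity, was lower (-2.11 ± 0.44, edgeR adjusted p = 0.00465), as was the kinase gene Sik1 (-1.85 ± 0.38, edgeR adjusted p = 0.00364), and pyruvate carboxylase (Pcx) was higher (0.89 ± 0.16, edgeR adjusted p = 0.00146). Pck1 of gluconeogenesis was at -0.15 and was not called. Of 40 genes of the urea cycle and amino acid breakdown 4 were higher and 11 lower. Tat, which degrades tyrosine, Hal, which degrades histidine, and Cth of cysteine synthesis were lower (-1.26 ± 0.19, -1.20 ± 0.22 and -0.98 ± 0.15, edgeR adjusted p = 5.0e-04, 0.00166 and 4.8e-04), whereas Glul, which makes glutamine in pericentral hepatocytes, and Oat were higher (0.86 ± 0.16 and 1.02 ± 0.21, edgeR adjusted p = 0.00162 and 0.00362). The count of 11 was 7 without HFD mouse 4, without chow mouse 1 or without chow mouse 3. Periportal genes, those of the portal end of the lobule, were lower in 9 and higher in 2 of 14 measured, and pericentral genes lower in 2 and higher in 5 of 18, or 3 without chow mouse 3.

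Of 30 measured drug-metabolizing cytochromes 14 were lower, 3 higher and 13 not called. Cyp1a2, a pericentral enzyme that oxidizes caffeine, had 239, 270.2, 226, 179 and 148 CPM in HFD livers, against 903, 529.6 and 616 CPM in chow livers (-1.68 ± 0.19, edgeR adjusted p = 5.4e-05). Cyp2c29 was at 495 ± 111 CPM in HFD livers and 1396 ± 198 CPM in chow livers (SD, n = 5 and 3; -1.50 ± 0.21, edgeR adjusted p = 2.3e-04), and Cyp2c54 at -2.55 ± 0.50 (edgeR adjusted p = 0.00273). Cyp2c38 and Cyp2c39 went against the family and were higher (2.34 ± 0.24 and 2.77 ± 0.31, edgeR adjusted p = 2.9e-05 and 4.7e-05). The Cyp2c genes are close copies, and their separate values are uncertain. The count of 14 was 8 without HFD mouse 4, 7 without chow mouse 1 and 8 without chow mouse 2. It was 8 in the fit of the 8 WT libraries alone, and with the replicate block 5 were higher and 9 lower. Of 37 conjugation enzymes 3 were higher and 8 lower, or 5 lower without the 2 libraries of low mitochondrial share. Among them the glutathione transferase Gstp1, a male-biased form, was lower (-2.02 ± 0.28) and the transferase Gstm2 higher (1.36 ± 0.20, edgeR adjusted p = 2.1e-04 and 3.9e-04). Among 18 NRF2 targets 4 were higher and 1 lower, or 2 and 1 with the replicate block, with the heme oxygenase gene Hmox1 (1.13 ± 0.18) and Nqo1 (1.13 ± 0.27) among the higher ones (edgeR adjusted p = 6.0e-04 and 0.00868).

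ER chaperones were lower as a group. These proteins fold and quality-check the secreted proteins of hepatocytes and are switched on together when unfolded protein builds up. Of 21 genes 18 were lower and none higher, with a median of -0.78 and every member at or under -0.27. The count of 18 was 14 with the replicate block, 14 in the fit of the 8 WT libraries alone, and 14 to 19 with each library left out. Hspa5, the central chaperone BiP (chromosome 2, 34771970 to 34777547, GRCm38), had 1069.9, 769, 1184, 803 and 915 CPM in HFD livers, against 1649, 1894 and 2644 CPM in chow livers. The groups did not overlap (-1.12 ± 0.18, edgeR adjusted p = 7.7e-04). Sdf2l1, its cochaperone, had 40.7, 24.4, 31.1, 17.8 and 27.9 CPM in HFD livers against 93.9, 132 and 143 CPM in chow livers (-2.11 ± 0.24, edgeR adjusted p = 5.5e-05). Creld2 (-2.10 ± 0.24), Manf (-1.48 ± 0.21), Hyou1 (-1.28 ± 0.25), the ubiquitin ligase gene Syvn1 (-1.47 ± 0.26), Hsp90b1 (-0.84 ± 0.15) and the regulator gene Xbp1 (-0.62 ± 0.13) were lower too (edgeR adjusted p = 5.1e-05, 2.7e-04, 0.00304, 0.00127, 0.00170 and 0.00443). In S100a8 fl/fl livers 15 of the 21 were lower and none higher, with a median of -0.42, and the difference between the cohorts was called for none of them. In the integrated stress response, a separate branch, Asns of asparagine synthesis was lower (-2.23 ± 0.50, edgeR adjusted p = 0.00724) and Ddit3 was at -0.25.

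Promoters of 3 of these genes are shown because they hold the ER stress element, the sequence through which ATF6 and XBP1 act. The windows are those of Hspa5 (chr2:34771840-34772139, plus strand), Creld2 (chr15:88819396-88819695, plus strand) and Syvn1 (chr19:6046326-6046625, plus strand) in RefSeq GRCm38.p6. Capitals mark the element, CCAAT and CCACG with 9 bases of any kind between them, which lies on the opposite strand in Creld2.
Hspa5: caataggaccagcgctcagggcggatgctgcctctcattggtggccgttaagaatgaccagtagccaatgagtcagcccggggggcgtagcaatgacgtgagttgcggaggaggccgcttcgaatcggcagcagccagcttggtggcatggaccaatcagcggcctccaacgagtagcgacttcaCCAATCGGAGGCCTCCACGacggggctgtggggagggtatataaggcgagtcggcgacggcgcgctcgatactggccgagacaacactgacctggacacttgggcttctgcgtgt
Creld2: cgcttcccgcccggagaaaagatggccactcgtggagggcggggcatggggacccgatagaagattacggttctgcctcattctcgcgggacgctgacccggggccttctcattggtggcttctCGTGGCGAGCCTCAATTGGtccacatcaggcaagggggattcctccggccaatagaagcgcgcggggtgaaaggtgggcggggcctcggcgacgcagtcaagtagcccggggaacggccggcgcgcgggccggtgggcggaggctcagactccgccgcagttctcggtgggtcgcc
Syvn1: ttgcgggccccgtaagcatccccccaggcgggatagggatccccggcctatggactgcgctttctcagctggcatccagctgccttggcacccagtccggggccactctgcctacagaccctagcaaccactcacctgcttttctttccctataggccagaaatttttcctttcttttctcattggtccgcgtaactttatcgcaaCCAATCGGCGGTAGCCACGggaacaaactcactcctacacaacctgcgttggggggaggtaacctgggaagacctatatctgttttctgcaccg
Searched on both strands, the element was in the window of 37 of 27025 genes (0.137%) and in 9 of the 18 chaperone genes with a window. Among these genes 8 of the 9 with the element and 7 of the 9 without it were lower on HFD, as were the 3 genes with no window.

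Immediate early genes, transcription factors and phosphatases that respond to signals within minutes, were lower in 8 of 16 measured (median -0.77), and Klf6 was the member that was higher (1.02 ± 0.27, edgeR adjusted p = 0.0184, up to 0.0790 without chow mouse 1 or chow mouse 3, and 0.0639 with the replicate block). Egr1 had 8.98, 9.32, 25.8, 12.8 and 12.3 CPM in HFD livers, against 96.4, 65.1 and 38.6 CPM in chow livers. HFD mouse 3 was the highest of its group and below every chow liver (-2.26 ± 0.41, edgeR adjusted p = 0.00149). Fos (-1.99 ± 0.31), Junb (-1.48 ± 0.26), the phosphatase gene Dusp1 (-1.89 ± 0.37) and the orphan receptor gene Nr4a1 (-2.86 ± 0.72) were lower (edgeR adjusted p = 5.1e-04, 0.00146, 0.00306 and 0.0136). In S100a8 fl/fl livers none of 17 was lower and 3 were higher (median 0.56), against 14.5% of all genes higher and 13% lower. The difference between the cohorts was called for none of the 16.

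**Figure D4:**
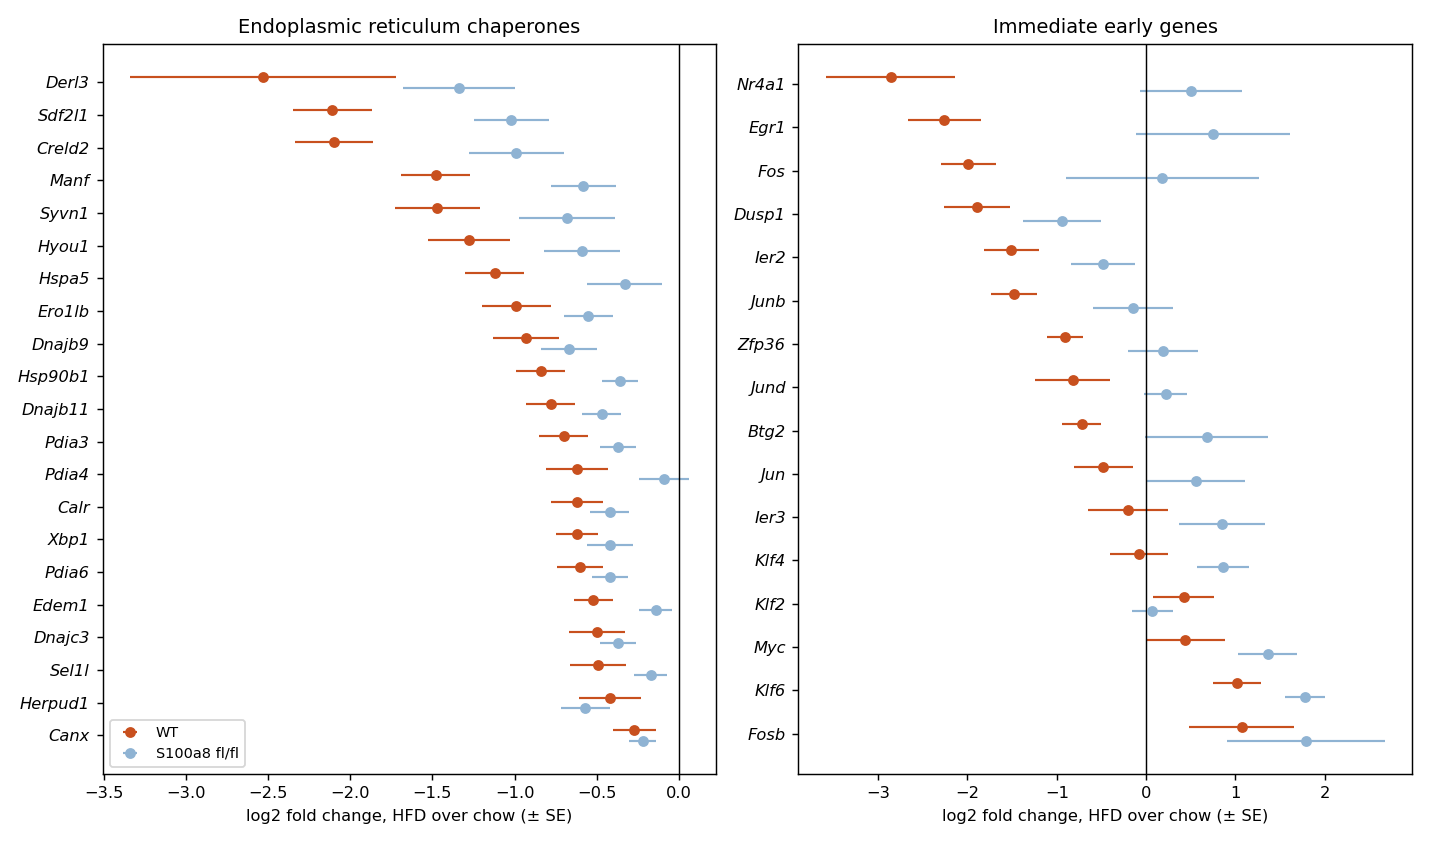
Log2 fold change of HFD over chow (± SE) of the ER chaperones (left) and immediate early genes (right), in WT livers (orange) and S100a8 fl/fl livers (blue). All 21 chaperones lie below 0 in both cohorts, while the immediate early genes lie mostly below 0 in WT livers and mostly above it in S100a8 fl/fl livers.

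Acute phase genes, which hepatocytes make for the blood in inflammation, moved in both directions, with 10 of 27 measured higher and 5 lower, or 3 lower without chow mouse 2. Lcn2, an iron-binding protein of innate defence, had 34, 23.7, 71.5, 31.4 and 56.5 CPM in HFD livers, against 3.77, 2.92 and 2.03 CPM in chow livers (3.89 ± 0.42, edgeR adjusted p = 3.9e-05). The serum amyloid gene Saa2 was at 105 ± 42.2 CPM in HFD livers and 17.5 ± 6.68 CPM in chow livers (2.58 ± 0.35, edgeR adjusted p = 1.7e-04) and Saa1 at 156 ± 63.5 CPM in HFD livers and 58.4 ± 24.7 CPM in chow livers (1.42 ± 0.31, edgeR adjusted p = 0.00658). The protease inhibitor gene Serpina3n and metallothionein 1 (Mt1) were higher (1.0 ± 0.19 and 1.96 ± 0.43, edgeR adjusted p = 0.00189 and 0.00618), and the fibrinogen chain genes Fga and Fgb lower (-0.69 ± 0.16 and -0.73 ± 0.15, edgeR adjusted p = 0.00950 and 0.00415). Hamp, which encodes hepcidin, the hormone that holds iron in cells, had 111, 323, 151, 31 and 71.7 CPM in HFD livers and 752, 1180.1 and 920.2 CPM in chow livers (-2.79 ± 0.46, edgeR adjusted p = 7.7e-04). HFD mouse 2 was the highest of its group and below every chow liver. Its close copy Hamp2 went the other way (2.13 ± 0.55, edgeR adjusted p = 0.0150, up to 0.0610 without chow mouse 1). The separate values of Hamp and Hamp2, and of Saa1 and Saa2, are uncertain because reads may be split between copies. Complement and coagulation genes were lower in 13 of 41 and higher in 2. C8b of the membrane attack complex (59.4 ± 21.4 CPM in HFD and 379 ± 90.2 CPM in chow livers, -2.67 ± 0.28), C6 (-1.86 ± 0.34) and the clotting factor gene F11 (-0.86 ± 0.16) were lower (edgeR adjusted p = 3.3e-05, 0.00166 and 0.00191).

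Macrophage markers were higher. Of 9 Kupffer cell markers 7 were called higher, among them C1qb (1.03 ± 0.20), Clec4f (1.13 ± 0.26) and Cd5l (1.53 ± 0.37, edgeR adjusted p = 0.00264, 0.00833 and 0.00984). This count was 4 without chow mouse 1 and 3 without the libraries of low mitochondrial share (mouse 2 of both groups). Markers of lipid-associated macrophages, which gather in fatty tissue, were higher in 7 of 10, and Fabp5 was the member that was lower. Gpnmb had 2.71, 1.63, 5.07, 4.77 and 8.93 CPM in HFD livers, against 0.377, 0.247 and 0.145 CPM in chow livers (4.10 ± 0.59, edgeR adjusted p = 2.7e-04). Trem2 (2.96 ± 1.60 CPM in HFD and 0.545 ± 0.312 CPM in chow livers, 2.44 ± 0.48), the elastase gene Mmp12 (3.33 ± 0.57), Itgax (1.82 ± 0.36) and Lgals3 (1.46 ± 0.27) were higher (edgeR adjusted p = 0.00298, 0.00104, 0.00309 and 0.00191). The summed level of the 8 measured markers of monocytes and macrophages was 109.9 to 178 CPM in HFD livers and 57.8 to 73.3 CPM in chow livers, and 5 of them were called higher, or 3 without chow mouse 2. S100a8 and S100a9, alarmins of neutrophils and monocytes, were at 0.667 ± 0.201 and 1.29 ± 0.374 CPM in HFD livers against 0.794 ± 0.311 and 1.25 ± 1.16 CPM in chow livers (-0.25 ± 0.38 and 0.04 ± 0.48, edgeR adjusted p = 0.694 and 0.970). Of 9 neutrophil markers, these 2 included, 3 were measured in WT livers and 1 was higher. In S100a8 fl/fl livers 2 were measured and both were higher (median 1.99), 1 of them in both cohorts. Their summed level there was low, at 2.92 to 4.55 CPM on HFD and 0.277 to 1.83 CPM on chow. The tables were filtered before deposit, so markers this low on chow could enter through libraries where they are high. That both were higher may follow in part from this filter and does not test the list. Among chemokine and cytokine genes 8 of 26 measured were higher and none lower, or 5 in the fit of the 8 WT libraries alone. Ccl2, which draws monocytes, had 2.14, 2.03, 2.97, 3.20 and 2.95 CPM in HFD livers and 0.617, 0.987 and 0.581 CPM in chow livers (1.86 ± 0.35, edgeR adjusted p = 0.00216), and Cxcl10, which draws T cells, was at 1.41 ± 0.24 (edgeR adjusted p = 9.3e-04). Of 35 interferon-stimulated genes 9 were higher and 1 lower, among them Oas2 (1.53 ± 0.25) and Ifit3 (1.38 ± 0.26, edgeR adjusted p = 7.1e-04 and 0.00205), and 15 were higher with the replicate block.

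Of 31 collagen and basement membrane genes 17 were higher and 1 lower, with a median of 0.91. Col1a1, a chain of the fibrillar collagen of scar tissue, had 47.9, 56.7, 44.6, 52.5 and 71.6 CPM in HFD livers, against 9.22, 7.57 and 8.57 CPM in chow livers. Each HFD liver was well above each chow liver (2.69 ± 0.36, edgeR adjusted p = 1.7e-04). Col3a1, the collagen of reticular fibres, was at 115 ± 16.6 CPM in HFD livers and 25.8 ± 1.29 CPM in chow livers (2.15 ± 0.20, edgeR adjusted p = 1.4e-05), and Col4a1 of basement membranes at 1.33 ± 0.21 (edgeR adjusted p = 6.0e-04). Col27a1 was the member that was lower (-1.38 ± 0.17, edgeR adjusted p = 9.0e-05). Matrix glycoproteins and crosslinking enzymes were higher in 12 of 35 measured and lower in 1, with Postn (1.47 ± 0.19), Sparc (1.23 ± 0.17) and the crosslinking enzyme gene Lox (2.12 ± 0.39) among the higher ones (edgeR adjusted p = 1.2e-04, 2.1e-04 and 0.00187). Matrix proteases and their inhibitors were higher in 10 of 25, a count that was 4 without chow mouse 1 or chow mouse 3 and 6 with the replicate block. The collagen processing gene Adamts2 was the firmest of them (1.40 ± 0.16, edgeR adjusted p = 4.7e-05). Of 9 stellate cell markers 4 were higher, among them Colec11 (0.93 ± 0.15) and Rgs5 (1.15 ± 0.26, edgeR adjusted p = 7.6e-04 and 0.00729), or 2 without HFD mouse 4 or chow mouse 1. Acta2, the actin of activated stellate cells and smooth muscle, was at -0.20 ± 0.35 (edgeR adjusted p = 0.750). The calcium-dependent membrane proteins Anxa2 (86 ± 25.2 CPM in HFD and 14.7 ± 4.99 CPM in chow livers, 2.55 ± 0.36) and Anxa5 (1.47 ± 0.23) were higher (edgeR adjusted p = 2.4e-04 and 5.6e-04). Of 8 measured bile duct markers 1 was lower, 1 higher and 6 not called, with a median of -0.51. Their summed level was 31.4 to 46.2 CPM in HFD livers and 61.4 to 74.8 CPM in chow livers. Sox9 was the lower one (-2.16 ± 0.23) and Krt23 the higher one (2.46 ± 0.38, edgeR adjusted p = 3.7e-05 and 5.0e-04), and Epcam was at 0.09.

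Of 32 measured cell cycle genes 19 were higher and 1 lower, with a median of 1.25. Mki67, present in all dividing cells, had 3.86, 4.33, 5.03, 9.0 and 7.56 CPM in HFD livers, against 1.10, 0.781 and 1.16 CPM in chow livers. The groups did not overlap (2.55 ± 0.35, edgeR adjusted p = 2.1e-04). The replication helicase gene Mcm6 (1.72 ± 0.21), Top2a, which untangles replicated DNA (2.37 ± 0.34), the cyclin genes Ccnb1 (4.58 ± 0.82) and Ccnd1 (1.47 ± 0.34) and the mitotic activator gene Cdc20 (2.65 ± 0.54) were higher (edgeR adjusted p = 9.0e-05, 2.5e-04, 0.00150, 0.00748 and 0.00394). Levels stayed low by read count, and Ccnb1 was at 0.872 to 2.09 CPM in HFD livers and 0 to 0.0968 CPM in chow livers. Thymidine kinase (Tk1) went against its list, with 6.90, 14.3, 8.55, 9.04 and 11.3 CPM in HFD livers and 25.1, 24.6 and 25 CPM in chow livers (-1.31 ± 0.22, edgeR adjusted p = 9.3e-04), and the replication clamp gene Pcna was at -0.04. Of the secreted activin chains Inhbe (1.49 ± 0.27) and Inhbb (2.04 ± 0.40) were higher and Inhba lower (-1.38 ± 0.17, edgeR adjusted p = 0.00158, 0.00301 and 9.0e-05).

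The S100a8 fl/fl cohort gave the same comparison in other mice. There 3798 of 13817 genes were called (27.5%), 2004 higher (14.5%) and 1794 lower (13%). Of 13377 genes measured in both cohorts, 1153 were higher in WT and 771 of these were higher in S100a8 fl/fl livers too (66.9% of the WT list and 38.9% of the S100a8 fl/fl list, against 14.8% of all shared genes). Likewise 538 of 975 genes lower in WT were lower there (55.2% and 30.6%, against 13.1%), while 5 genes higher in WT were lower there and 12 genes lower in WT were higher. Across genes, which are not independent replicates, the log2 fold changes correlated at r = 0.75. Cyp2b9 was at 6.88 ± 0.60, Cd36 at 1.82 ± 0.33, Cidec at 2.78 ± 0.44, Col1a1 at 3.05 ± 0.33, Mki67 at 2.46 ± 0.49 and Hsd3b5 at -6.36 ± 0.47 in S100a8 fl/fl livers (edgeR adjusted p = 2.9e-07, 6.2e-04, 1.7e-04, 2.4e-06, 0.00127 and 1.1e-07), where Dbp, Per3 and Arntl overlapped between the diets. Collagen and male-biased genes were called there as well, with 23 of 29 collagen genes higher and 19 of 21 male-biased genes lower.

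**Figure D5:**
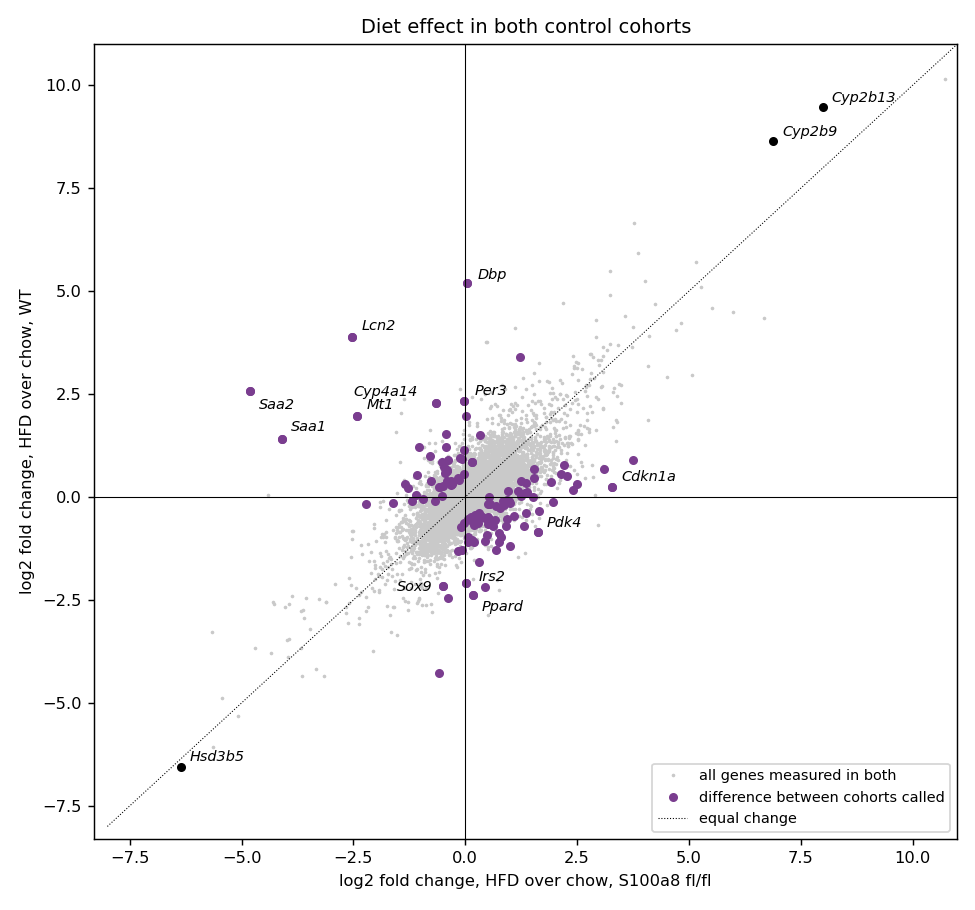
Log2 fold change of HFD over chow in WT livers (vertical axis) and in S100a8 fl/fl livers (horizontal axis), 1 point per gene for the 13377 genes measured in both. The 126 genes whose change differed between the cohorts are purple, the named genes in black did not pass the test of that difference, the dotted line marks equal change, and Dbp and Per3 lie high above 0 in WT livers and near 0 in S100a8 fl/fl livers.

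The diet effect differed between the cohorts for 126 of 13377 genes (0.942%) in a joint edgeR fit, 48 with a higher (0.359%) and 78 with a lower value in WT (0.583%). Of these 47 were called in WT alone, 60 in S100a8 fl/fl alone, 2 in both in the same direction and 17 in opposite directions. Clock genes were among the firmest, with a difference (WT minus S100a8 fl/fl) of 5.16 ± 0.60 for Dbp, 1.64 ± 0.23 for Tef, 2.39 ± 0.39 for Per3 and 1.06 ± 0.21 for Nr1d2 (edgeR adjusted p = 7.1e-06, 1.9e-04, 0.00136 and 0.00884). Ppard, a nuclear receptor for fatty acids, had the smallest p, with 10.5, 8.69, 7.42, 9.51 and 10.0 CPM in HFD-fed WT and 58.8, 40.2 and 43.9 CPM in chow-fed WT livers. In S100a8 fl/fl livers it was at 7.86 to 10.8 CPM on HFD and 5.71 to 10.7 CPM on chow, so that only the chow-fed WT livers stood high (difference -2.54 ± 0.27, edgeR adjusted p = 1.5e-06). Irs2 and Sox9, both lower in WT, were at 0.01 and -0.49 in S100a8 fl/fl livers (difference -2.08 ± 0.43 and -1.66 ± 0.33, edgeR adjusted p = 0.0142 and 0.00798), and the Irs2 difference was not called without chow-fed WT mouse 3 (edgeR adjusted p = 0.0573). Pdk4 was higher in S100a8 fl/fl livers (1.62 ± 0.35, difference -2.45 ± 0.47, edgeR adjusted p = 0.00669), as was the cell cycle inhibitor gene Cdkn1a (3.28 ± 0.43 there and 0.25 ± 0.43 in WT, difference -3.01 ± 0.63, edgeR adjusted p = 0.0142).

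Acute phase genes also differed, and chow-fed S100a8 fl/fl mouse 2 took part in this. Saa2 was at 147, 334, 116, 166 and 141 CPM in HFD-fed and 214, 18635, 1363 and 189 CPM in chow-fed S100a8 fl/fl livers, the highest value being that of chow-fed mouse 2 and the next that of chow-fed mouse 4. Lcn2 was at 92, 87.3, 64.5, 70.9 and 56.3 CPM in HFD-fed and 9.61, 1614, 66.8 and 28.3 CPM in chow-fed S100a8 fl/fl livers, again highest in chow-fed mouse 2, with chow-fed mouse 4 next. The difference was 7.42 ± 1.36 for Saa2, 5.54 ± 1.11 for Saa1, 4.40 ± 0.86 for Mt1 and 6.44 ± 1.37 for Lcn2 (edgeR adjusted p = 0.00427, 0.00884, 0.00775 and 0.0162). Without chow-fed S100a8 fl/fl mouse 2 it was 4.28 ± 0.89 for Saa2, 3.21 ± 0.78 for Saa1 and 2.71 ± 0.60 for Mt1 (edgeR adjusted p = 0.0167, 0.0422 and 0.0225), and 2.79 ± 0.84 for Lcn2, which was no longer called (edgeR adjusted p = 0.0989). The diet change within S100a8 fl/fl livers was then -1.70 ± 0.70 for Saa2 and -1.79 ± 0.62 for Saa1 (edgeR adjusted p = 0.0844 and 0.0445). For Mt1 and Lcn2 this change was -0.74 ± 0.38 and 1.09 ± 0.67 (edgeR adjusted p = 0.168 and 0.247). With all mice the 4 changes were -4.82, -4.10, -2.41 and -2.53. Collection time, fasting, diet length and S100a8 alleles differ or may differ between the cohorts, and they cannot be told apart from the cohort.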

How the data were processed

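Polyadenylated RNA of whole livers had been sequenced on an Illumina HiSeq by the authors. Their notes name FastQC, Trimmomatic, HISAT2, SAMtools, featureCounts and DESeq2, the mouse build GRCm38, and no versions. Strandedness of the counting is not given in the sources used here, so overlapping and antisense genes cannot be told apart. The deposited values used are raw counts per gene, as the authors' tables give them. Columns with the authors' own fold changes and p-values were not used. The tables listed 192 (Bcl2 experiment) and 213 (S100a8 experiment) entries more than 1 per Ensembl identifier, and 1 row was kept for each, leaving 14436 and 13817 genes. The lowest mean count was 7.12, so the tables were filtered before deposit, and genes outside them are not analysed here. Coordinates are from GENCODE M21 (GRCm38), which held 14425 and 13809 of the genes.

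Counts were normalized by TMM and tested with edgeR 4.0.16 (quasi-likelihood, Benjamini-Hochberg adjustment over all genes) in a fit of the 16 libraries of the Bcl2 experiment by group, with HFD-fed minus chow-fed WT as the contrast. The 18 libraries of the S100a8 experiment were fitted in the same way, and the 34 libraries together for the difference between cohorts. Standard errors are the log2 fold change over the root of F. Alternatives were DESeq2 1.42.0, limma 3.58.1 (voom), other normalizations and filters, the 8 WT libraries alone, a replicate block, covariates, and each library left out. The edgeR and DESeq2 fits of each comparison, and the voom fit of the WT comparison, were tested on simulated data. The other alternatives, the block and the covariates among them, were not. Genes named are members of gene lists, the 15 largest changes in each direction among called genes with a mean of at least 1 CPM and no overlap, and genes differing between cohorts, of which Ppard was singled out after its values were seen. Some genes that this rule names are not reported here. Members and lists were chosen with earlier results of these data known. The main fit had no replicate block. The block, an alternative, treats mice of the same number as matched, which no label states. Deviations of same-numbered mice from their group means correlated at 0.134, 0.136 and 0.150 over genes, each above 0.1. Unmatched pairs ran from -0.377 to 0.427, so these values do not show that the numbers mark pairs.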

Additional observations from a re-analysis of the deposited data

Results flagged for a closer look

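A library stood apart from the rest of its group in 21 of 194 groups of values examined, by the ratio of its gap to the group's range (Dixon's 95% value), where chance alone gives about 1 in 20. In HFD-fed WT mice these were the mitochondrial share of mouse 2 (1.77%) and 16 genes. HFD mouse 1 stood apart at Bcl2 (21.3 CPM), Bcl6 (72.3 CPM), Bhlhe41 (1.39 CPM), Hsd3b5 (10.2 CPM) and Syvn1 (118 CPM), each time as the highest. HFD mouse 2 was highest at Cyp2c70 (236 CPM), Hamp2 (37.7 CPM) and Igfbp2 (340.1 CPM), and HFD mouse 3 at Egr1 (25.8 CPM) and Rgs5 (57.8 CPM). HFD mouse 4 was highest at Cyp2b9 (334 CPM) and lowest at Pck1 (840.3 CPM), where the other HFD livers were at 1689.7 to 1728 CPM. HFD mouse 5 was highest at Anxa2 (129.6 CPM), Colec11 (60.8 CPM) and Trem2 (5.76 CPM) and lowest at Ppara (56.3 CPM). Among S100a8 fl/fl mice the libraries apart were HFD-fed mouse 5 at Dbp (69.4 CPM), HFD-fed mouse 2 at Saa2 (334 CPM), and chow-fed mouse 2 at Saa2 (18635 CPM) and Lcn2 (1614 CPM).

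The diet effect differed between the cohorts for 18 of 178 named genes in the joint edgeR fit, given as the WT minus the S100a8 fl/fl log2 fold change. Among clock genes the difference was 5.16 for Dbp, 1.64 for Tef, 2.39 for Per3, 1.06 for Nr1d2, 2.24 for Ciart and 1.64 for Usp2. Among acute phase genes it was 7.42 for Saa2, 5.54 for Saa1, 6.44 for Lcn2 and 4.40 for Mt1. Among lipid genes it was 2.96 for Cyp4a14, 0.64 for Pnpla2, -2.08 for Elovl3 and -2.45 for Pdk4, and for the others it was -2.54 for Ppard, -2.08 for Irs2, -1.66 for Sox9 and -3.01 for Cdkn1a. With each of the 17 libraries compared left out in turn, the Pnpla2 difference was not called without any of 16, Elovl3 without any of 15, Ciart without any of 14, and Cyp4a14 and Usp2 without any of 9 (edgeR adjusted p up to 0.128, 0.0984, 0.136, 0.110 and 0.131). Lcn2 was not called without chow-fed WT mouse 2 or 3 or chow-fed S100a8 fl/fl mouse 2, nor Irs2 without chow-fed WT mouse 3, and the calls of the other 11 genes did not depend on any 1 library.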

How the results depend on the processing

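The count of 2220 genes called in WT livers was 3342 with limma-voom and 1069 when an absolute log2 fold change above 1 was also required. In a fit of the 8 WT libraries alone it was 1406, with 890 higher (1213 in the main fit) and 516 lower (1007 in the main fit). It was 1623 to 2081 with each library left out, lowest without chow mouse 2, and 1578 without the 2 libraries of low mitochondrial share, a setting chosen after seeing the data. With the clock score as a covariate it was 0 in edgeR, with 663 genes at an unadjusted p under 0.05. List medians then went from 1.03 to 0.21 for Kupffer cell markers and from 1.26 to 0.20 for monocyte and macrophage markers. They went from -0.77 to 0.14 for immediate early and from -2.13 to -1.10 for male-biased genes. Medians did not shrink for collagens (0.91 to 1.08), the cell cycle (1.25 to 1.61) or ER chaperones (-0.78 to -0.89). They did shrink for matrix glycoproteins and crosslinking enzymes (0.63 to 0.42) and for matrix proteases and inhibitors (0.51 to 0.32). Stellate cell markers (0.67 to 0.35) and female-biased genes (2.42 to 0.79) shrank as well. Under that covariate 7 named genes changed sign, at 0.14 for Clock, -0.17 for Cyp4a14, 0.88 for Elovl3, 0.45 for Nr4a1, 0.12 for Pdk4, -0.42 for Per3 and -0.31 for Tef on the log2 scale, and no other setting changed the sign of a called named gene. Clock, Per3 and Tef are members of the score itself, so their values under it follow in part from how it was built. The 126 genes that differed between cohorts were 264 with DESeq2 and 53 in a fit of the 17 libraries compared. With each library left out they were 66 to 164, at 66 without chow-fed S100a8 fl/fl mouse 4, 75 without HFD-fed S100a8 fl/fl mouse 1 and 79 without chow-fed WT mouse 2. The S100a8 fl/fl count of 3798 was 3036 to 3764 with each library left out.

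With the replicate block 1996 genes were called in WT livers, 3245 in S100a8 fl/fl livers and 123 for the difference. Of the 181 genes named, 176 kept their call under the block, and the 5 that did not are given with their blocked values above. Median depth was similar in HFD-fed and chow-fed WT livers, although HFD mice 1 and 3 held 40392577 and 52395073 counts against at most 29994832 in chow-fed ones. Genes under about 1 CPM rest on few reads.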

Other observations

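Lysosomal genes were higher on HFD in 10 of 35 and lower in none in WT livers, or 5 without chow mouse 1 and 6 without chow mouse 3. In S100a8 fl/fl livers 13 of the 35 were higher and 1 lower, where 14.5% of all genes were called higher and 13% lower. Heat shock genes were lower in 3 of 16 and higher in none in WT livers, or 1 lower without HFD mouse 4, HFD mouse 5 or chow mouse 3, and 0 lower both with the replicate block and in the fit of the 8 WT libraries alone. They were lower in 7 and higher in 1 of 16 in S100a8 fl/fl livers. Of 10 sinusoidal endothelial markers 2 were higher in WT livers and 6 in S100a8 fl/fl livers, with medians of 0.42 and 0.64. Of 6 B cell markers 1 was higher in WT livers, and of 5 measured in S100a8 fl/fl livers none was called.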
